A study of Sus scrofa domesticus with 150 samples.

Results

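The 6 genes CD79A, CD79B, MS4A1, JCHAIN, MZB1 and POU2AF1, which are characteristic of B cells and of the plasma cells that B cells become, were followed through the healing of excisional skin wounds in pigs. They were chosen by symbol, and each symbol belonged to a single entry of the count table, so that 6 of 30461 genes were studied. RNA was measured in 150 samples of 6 female domestic pigs of mixed Yorkshire breed, each of which carried full-thickness circular wounds under Telfa Clear and Tegaderm dressings. Day 0 is the whole skin removed when the wounds were made (6 samples, 1 per animal), and it served as the unwounded reference. Later biopsies were taken at the edge and in the center of a wound (72 samples each, from 72 wounds). Animals 1, 2 and 3 were sampled on days 1, 3, 5, 7, 11, 15 and 21, and animals 4, 5 and 6 on days 2, 4, 6, 9, 13, 16 and 19. Each day therefore rests on 3 animals, with 2 wounds per animal up to day 13 and 1 wound per animal from day 15. Apart from days 16 and 19, neighbouring days belong to different animals. Between such days a change with time and a difference between the animal sets cannot be told apart. All animals had wounds, dressings and repeated biopsies, a topical antibiotic was given at biopsy sites, and there was no unwounded group on the later days.

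B cells recognise antigen through a surface immunoglobulin that signals through CD79A and CD79B, and they lose MS4A1 and other surface proteins when they mature into plasma cells. Plasma cells instead fill their endoplasmic reticulum with immunoglobulin, and JCHAIN links its IgA and IgM units into polymers before they are secreted. Skin holds few cells of this lineage when it is intact, and in mammalian immune responses antibody-secreting cells generally appear after the innate infiltrate. In whole-tissue RNA, fewer cells of a type and less RNA per cell cannot be told apart.

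The members were measured at low to moderate depth. Total counts ranged from 13133379 to 24895572 per sample, and 3 counts, taken as the floor of detection, corresponded to 0.121 to 0.228 CPM, which are counts scaled to the total of the library. The median count per sample was 560.5 for JCHAIN, 59 for MZB1, 31 for CD79A, 23 for CD79B, 23 for POU2AF1 and 20.5 for MS4A1. MS4A1 had no count in 4 of 150 samples, POU2AF1 in 2 and MZB1 in 1. Differences of single counts therefore weigh on the lowest values of MS4A1 and POU2AF1, above all in day 0 skin. A fixed list of 7 libraries was taken to stand apart from the replicates in the whole transcriptome, by a criterion not given here. They were replicate 2 of the day 2 center, 4 of the day 3 center, 6 of the day 3 edge and 6 of the day 5 edge. The others were replicate 5 of the day 6 center, 5 of the day 9 center and 1 of the day 11 center. Values without these libraries are given for some results.

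JCHAIN lies on contig LUXX01060991.1 at 806793 to 862151 on the forward strand (ENSSSCG00025037873), in the coordinates of the deposited table, whose genome build is not given in the sources used here. MZB1 lies on LUXX01073274.1 at 1392721 to 1394815 (ENSSSCG00025064975), POU2AF1 on LUXX01060653.1 at 1640684 to 1666302 (ENSSSCG00025035761) and CD79B on LUXX01047513.1 at 2065998 to 2069435 (ENSSSCG00025039953), all 3 on the reverse strand. MS4A1 spans LUXX01018472.1 from 635570 to 648799 on the reverse strand (ENSSSCG00025034767) and overlaps MS4A4A, a gene of macrophages, by 2164 bases on the other strand. CD79A spans LUXX01083703.1 from 142986 to 177115 on the reverse strand (ENSSSCG00025072883). This long gene model contains ARHGEF1 and RPS19 sequence on the same strand, and the protein match of the entry is ARHGEF1, so that the assignment of its reads to CD79A is uncertain. Across the 150 samples, Pearson's r of CD79A on the log2(1 + CPM) scale was 0.339 with ARHGEF1 and 0.03 with RPS19, and that of MS4A1 with MS4A4A was 0.461. These values describe samples that share animals and states, and the split of reads between the overlapping genes was not tested.

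In day 0 skin the plasma cell genes JCHAIN and MZB1 and the receptor chain CD79B were the members with the highest levels per length. By the deposited FPKM values, which divide by gene length and so allow genes to be compared, the day 0 medians were 1.85 for JCHAIN, 1.22 for MZB1, 0.95 for CD79B, 0.105 for MS4A1, 0.0677 for CD79A and 0.0631 for POU2AF1. For CD79A the divisor is the length of its long gene model, 5869 bases, so that its place in the order is uncertain. In the wound center of day 1 the median FPKM was 11.7 for JCHAIN, 7.26 for MZB1, 1.48 for CD79B, 1.31 for MS4A1, 0.746 for POU2AF1 and 0.659 for CD79A. At the edge of day 11 JCHAIN reached a median of 51.5 and MZB1 one of 14.2, while CD79B stood at 1.31, POU2AF1 at 1.18, CD79A at 0.308 and MS4A1 at 0.237. JCHAIN and MZB1 headed the order at all 3 of these points, and MS4A1, in the middle of the order before, was last at the edge of day 11. The center of day 1 and the edge of day 11 differ in location as well as in day.

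**Figure D1:**
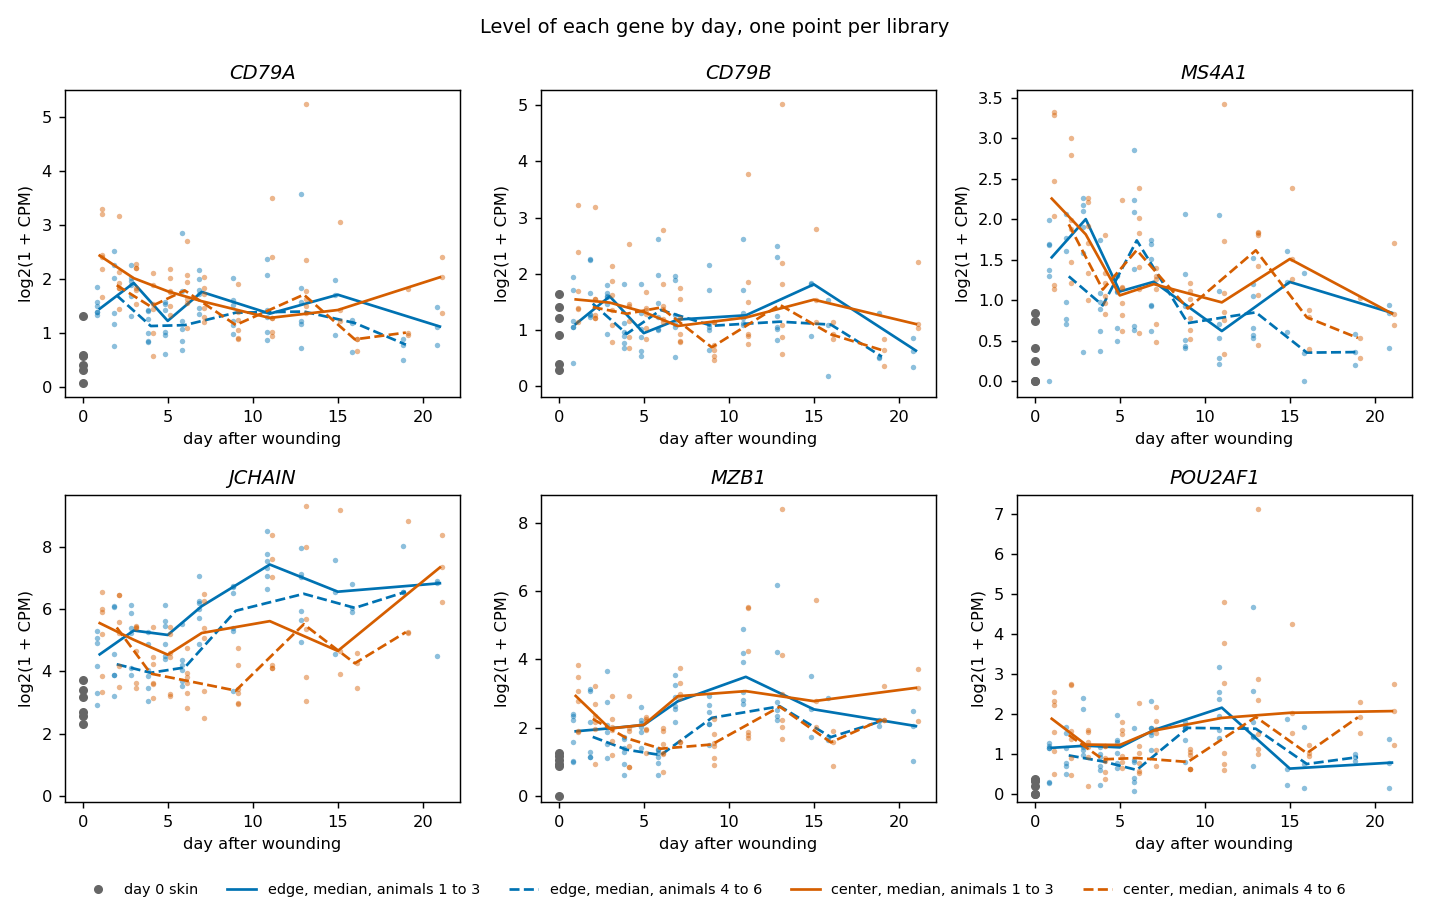
Levels of the 6 genes as log2(1 + CPM) against the day after wounding, with edge, center and day 0 skin drawn apart, 1 point per sample and lines through the medians. JCHAIN climbs to edge medians of 7.43 on day 11 and 6.83 on day 21, whereas MS4A1 has its highest median, 2.26, in the center of day 1.

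MS4A1, which encodes the B cell surface protein CD20, was highest in the first days and low at the edge on days 16 and 19. On the log2(1 + CPM) scale the 6 day 0 samples ran from 0 to 0.84 with a median of 0.33. The center of day 1 ran from 1.14 to 3.33 with a median of 2.26, and none of its 6 samples overlapped day 0. At the edge the highest median was 2.00 on day 3 (lowest 0.36, highest 2.27). The 3 edge samples of day 16 stood at 0, 0.35 and 1.33, and the 3 of day 19 at 0.21, 0.36 and 0.58. All 3 day 19 edge values lay within the range of day 0 skin, on 3 to 9 counts each. In the center the lowest median was 0.53, on day 19, while the medians of late wounds in animals 4 to 6 reached 1.62.

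CD79A and CD79B form the signalling part of the B cell receptor. The CD79A median rose from 0.48 in day 0 skin (0.07 to 1.31) to 2.43 in the center of day 1 (1.65 to 3.29), again without overlap. It was highest at the edge on day 3 with 1.92 (1.31 to 2.25) and lowest there on day 19 with 0.78 (0.49 to 0.89). CD79B started from a higher median of 1.06 in day 0 skin (0.30 to 1.63), so that most wound states overlapped it. Its highest edge median was 1.81 on day 15, with 3 samples between 0.88 and 1.84, and the 3 edge samples of day 21 lay between 0.35 and 0.85.

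JCHAIN, MZB1 and POU2AF1 had their highest medians late. JCHAIN stood at 2.95 in day 0 skin (2.32 to 3.71) and at 7.43 at the edge of day 11 (6.65 to 8.51), where every sample exceeded every day 0 sample. In the center its highest median was 7.34 on day 21, with the 3 samples at 6.22, 7.34 and 8.38. MZB1, a chaperone of immunoglobulin assembly in the endoplasmic reticulum, rose from a day 0 median of 0.99 (0 to 1.24) to 3.49 at the edge of day 11 (2.70 to 4.90) and 3.17 in the center of day 21 (2.19 to 3.71). POU2AF1, the lymphocyte coactivator OBF-1, rose from 0.27 (0 to 0.38) to 2.17 at the edge of day 11 (1.42 to 3.19) and 2.08 in the center of day 21 (1.24 to 2.77).

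The late center samples were uneven. On day 15 the 3 center values of JCHAIN were 3.93, 4.66 and 9.18, and on day 19 they were 5.22, 5.26 and 8.81, so that in each case 1 of 3 wounds was far above the others. On day 16 the center values were 3.47, 4.26 and 4.58 and the edge values 5.91, 6.04 and 6.81, and the locations did not overlap. When the 29 states were put in the order of their medians, day 0 skin was the lowest state for every member but CD79B, for which it ranked 22nd. Neighbouring states in that order overlapped in 28 of 28 pairs for 5 members and in 27 of 28 for CD79A, so that the exact order of the days does not stand out from the spread between samples.

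The question of when these genes arrive was put to each day by comparing every wound state with day 0 skin (edgeR's quasi-likelihood test on all 150 samples, Benjamini-Hochberg adjustment over all genes tested, with calls below 0.05). At the edge 48 of 84 pairs of a member and a day were higher than day 0, against 19.9% of all gene and day pairs, and in the center 61 of 84, against 28.2%. No pair was lower, against 14.6% and 27.5% of all pairs, whether by edgeR, at an unadjusted p below 0.05 or by DESeq2. The wounds of an animal enter this comparison as samples, and with the animal as a replicate block the counts were 31 at the edge and 50 in the center. POU2AF1 was called on all 14 days in the center and on 11 at the edge, CD79A on 13 and 10, MS4A1 on 11 and 7, JCHAIN on 10 and 11, and MZB1 on 10 and 9. CD79B was called on 3 days in the center and on 0 at the edge, where 0 days also passed at an unadjusted p below 0.05.

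**Figure D2:**
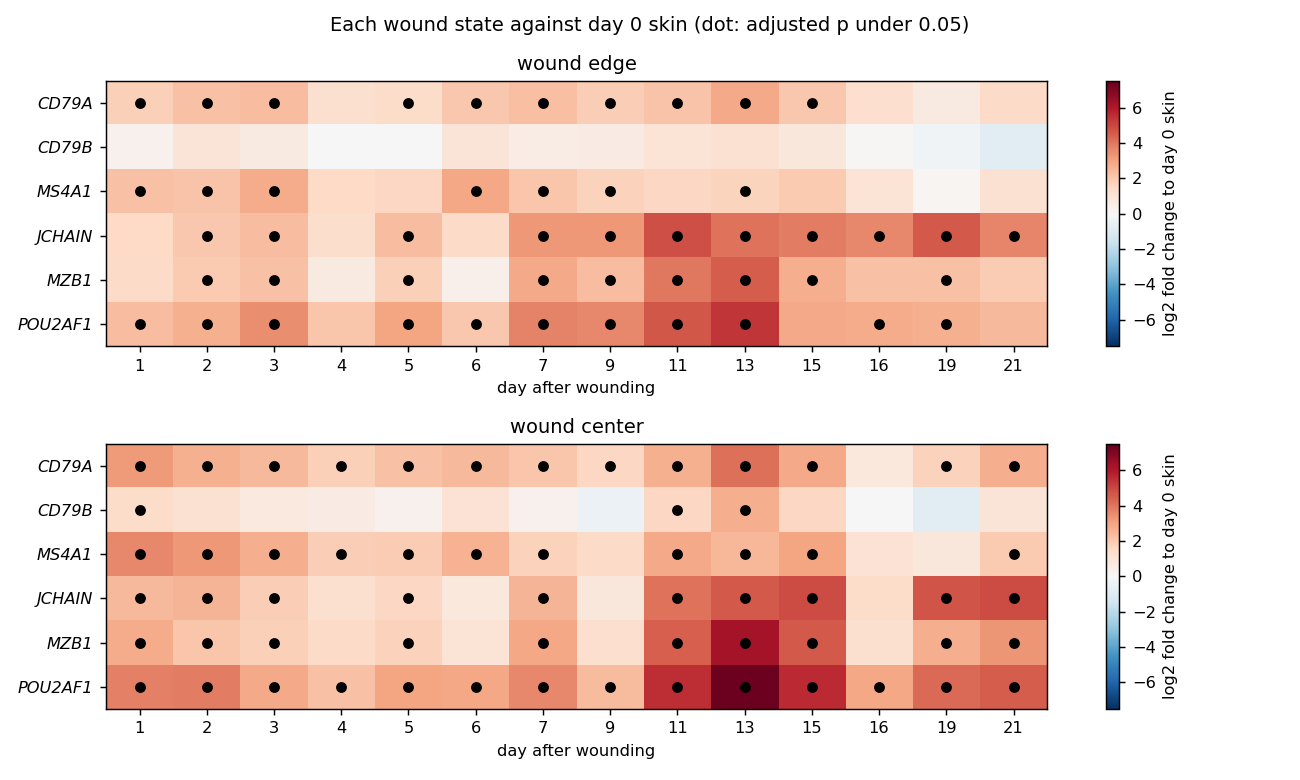
Log2 fold change of each gene against day 0 skin (color scale) by day and location, from the fit to all 150 samples, with a mark where the adjusted p was below 0.05. POU2AF1 is marked on all 14 days of the center and CD79B on 0 days of the edge.

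MS4A1 and CD79A were already high on day 1, whereas CD79B was called on 1 of the 4 days from 1 to 4 in the center and on 0 at the edge. In the center of day 1 the log2 fold change against day 0 was 3.57 ± 0.71 (SE) for MS4A1 (edgeR's quasi-likelihood test, adjusted p = 6.07e-06) and 3.21 ± 0.58 for CD79A (adjusted p = 8.82e-07). JCHAIN was 2.46 ± 0.72 higher there (edgeR adjusted p = 0.00195) and 4.84 ± 0.79 higher at the edge of day 11 (adjusted p = 4.07e-07). MS4A1 at the edge of day 11 was 1.57 ± 0.69 higher and did not pass (edgeR adjusted p = 0.0674). On the 6 days from 11 to 21 JCHAIN was called at the edge on 6 and MS4A1 on 1.

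The first day of a call that was repeated on the next sampled day depended on the animals. Over all days it was day 1 at the edge for CD79A, MS4A1 and POU2AF1 and day 2 for JCHAIN and MZB1. In the center it was day 1 for 5 members and day 11 for CD79B. Animals 1 to 3 alone gave day 1 in the center for the same 5 members and none for CD79B. Animals 4 to 6 alone gave day 2 there for CD79A, MS4A1 and POU2AF1, and none for JCHAIN, MZB1 and CD79B. At the edge, within the days of animals 1 to 3, the first day was day 1 for CD79A, MS4A1 and POU2AF1 and day 3 for JCHAIN and MZB1. Within the days of animals 4 to 6 it was day 6 for the former and day 9 for the latter. This order rests on the repeated call: on day 2, a day of animals 4 to 6, all 5 of these members were called at the edge, and on day 4 none was. With the wounds of an animal summed, animals 4 to 6 gave day 9 for POU2AF1 and none for MS4A1. Animals 1 to 3 then gave day 7 for MZB1, while CD79A and JCHAIN kept their days. Without the 7 libraries that stood apart, POU2AF1 and MZB1 moved to the same days. With the animal as a replicate block, CD79A had no such day in animals 1 to 3, nor MS4A1 in animals 4 to 6. With the animal as a replicate block over all days, the first day at the edge was 2 for CD79A, 6 for MS4A1 and 7 for JCHAIN, MZB1 and POU2AF1. The edge medians of JCHAIN on the days of animals 1 to 3 lay above both neighbouring days of animals 4 to 6 in 5 of 5 cases, and those of MS4A1 in 2 of 5.

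To compare ages of wound over the same 6 animals, counts were summed for each animal by period. The periods were early wounds (days 1 to 4), middle wounds (days 5 to 9) and late wounds (days 11 to 21). This gave 6 animals in every group and put both animal sets in every period, although on different days. The main fit held no term for the animal, so the sums of an animal entered it as separate samples. A fit with the animal as a replicate block called 2 members higher late than early at the edge and 3 in the center. JCHAIN, MZB1 and POU2AF1 were higher in late than in early wounds at the edge and in the center, and CD79A, CD79B and MS4A1 were called in neither location. That is 3 of 6 members higher at the edge, where 17.0% of 18652 genes were higher, and 3 of 6 in the center, where 26.0% were. No member was lower by edgeR or DESeq2, nor at an unadjusted p below 0.05, where 17.0% of all genes were lower at the edge and 23.6% in the center. The median log2 fold change over the 6 members was 0.86 at the edge and 1.53 in the center, against 0.01 over all genes at both locations.

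JCHAIN at the edge ran from 12.4 to 46.3 CPM over the 6 animals in early wounds (median 28.2), from 20.0 to 63.7 in middle wounds (median 53.2) and from 96.6 to 163 in late wounds (median 127). Early and late animals did not overlap, and all 6 animals rose. The log2 fold change was 2.47 ± 0.52 (SE, edgeR's quasi-likelihood test, adjusted p = 0.000243), and late wounds also exceeded middle wounds, by 1.57 ± 0.50 (adjusted p = 0.0226). In the center it ran from 11.1 to 58.8 CPM early (median 36.5), from 7.83 to 52.3 in the middle (median 15.1) and from 29.3 to 333 late (median 138). The center groups overlapped, although each of the 6 animals was higher late than early, and the log2 fold change was 2.31 ± 0.52 (edgeR adjusted p = 0.000297).

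MZB1 rose from an early median of 2.40 CPM at the edge (1.58 to 5.69) to a late median of 8.64 (3.26 to 19.1), in 5 of 6 animals. Its log2 fold change was 1.93 ± 0.62 at the edge (edgeR adjusted p = 0.0134) and 2.85 ± 0.64 in the center (adjusted p = 0.000308), where the medians were 3.63 CPM (1.90 to 7.94) and 13.0 CPM (2.89 to 84.1). POU2AF1 rose from 0.982 CPM at the edge (0.663 to 2.57) to 2.57 (1.16 to 6.45) and from 1.77 CPM in the center (0.646 to 3.32) to 6.64 (1.13 to 34.8), in 5 of 6 animals at each location. The log2 fold changes of POU2AF1 were 1.53 ± 0.59 (edgeR adjusted p = 0.0396) and 2.77 ± 0.60 (adjusted p = 0.000232). At the edge this call was lost with the animal as a replicate block (log2 fold change 1.39, adjusted p = 0.0512), without TMM (1.24, adjusted p = 0.0766) and without the filter on low counts (1.48, adjusted p = 0.0598).

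MS4A1 lay lower in late wounds without passing the test. At the edge the animals ran from 0.789 to 2.71 CPM early (median 1.74) and from 0.648 to 1.43 late (median 0.755), and in the center from 1.44 to 4.63 (median 2.93) and from 0.592 to 4.18 (median 1.45). The log2 differences were -0.77 ± 0.47 (edgeR adjusted p = 0.216) and -0.52 ± 0.46 (adjusted p = 0.359), and 5 of 6 animals at the edge and 6 of 6 in the center were lower late than early on the log2(1 + CPM) scale. For CD79A the log2 differences were 0.14 ± 0.40 at the edge and 0.50 ± 0.40 in the center, and for CD79B 0.19 ± 0.45 and 0.74 ± 0.45. The signs of CD79A and of CD79B turned at both locations under other settings.

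**Figure D3:**
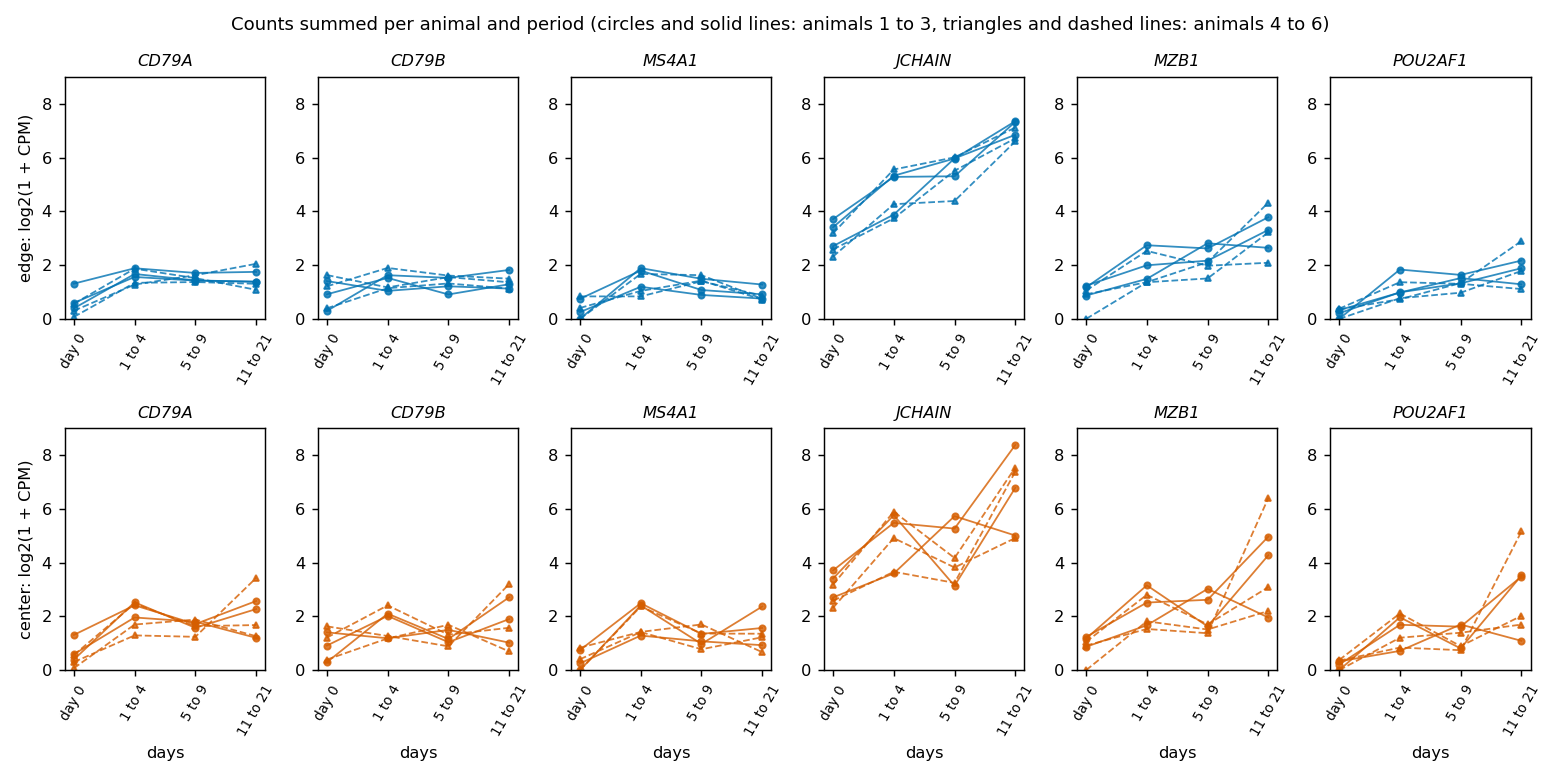
Log2(1 + CPM) of each gene for each of the 6 animals, with the counts of an animal summed over day 0 and over early, middle and late wounds, edge and center apart, and 1 line per animal. At the edge all 6 animals have their highest JCHAIN value in late wounds, and none of the 6 has its highest MS4A1 value there.

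Within single animals the change of JCHAIN from early to late edge wounds exceeded that of MS4A1 by 2.85 ± 0.444 (SD, n = 6 animals) on the log2(1 + CPM) scale, and in the center by 2.33 ± 1.36. The difference was positive in 6 of 6 animals at both locations. Of the 18 such differences between JCHAIN, MZB1 or POU2AF1 and CD79A, CD79B or MS4A1, 17 were positive in all 6 animals, and that of MZB1 and CD79B at the edge was positive in 5. These pairs were set up after the values were seen, so that no test is given for them.

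The late rise was in part carried by 1 wound. The day 13 wound with the highest immunoglobulin share, of animal 4, held 5872 MZB1 counts (339 CPM) and 2404 POU2AF1 counts (139 CPM) in its center, and 44 MS4A1 counts (2.54 CPM). Without both libraries of this wound the log2 fold changes of late against early wounds in the center were 2.02 for JCHAIN, 1.62 for MZB1 (edgeR adjusted p = 0.0132) and 1.60 for POU2AF1 (adjusted p = 0.00752). At the edge they were 2.39 for JCHAIN (adjusted p = 0.000899), 1.44 for MZB1 (adjusted p = 0.0377) and 0.97 for POU2AF1, which was then not called (edgeR adjusted p = 0.135). This wound was set aside after its values were seen.

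The edge call of JCHAIN also held within each animal set, at 2.51 in animals 1 to 3 (edgeR adjusted p = 0.0258) and 2.43 in animals 4 to 6 (adjusted p = 0.0238). MZB1 and POU2AF1 passed at the edge in neither set alone, with MZB1 at 1.59 and 2.29 (adjusted p = 0.099 and 0.156) and POU2AF1 at 0.99 and 2.10 (adjusted p = 0.362 and 0.166). Without animal 1, and likewise without animal 4, 1 member was called at the edge, JCHAIN, and without animal 5 POU2AF1 was not called (1.44, edgeR adjusted p = 0.086). In the center all 3 genes passed in both sets, JCHAIN at 2.39 and 2.19, MZB1 at 2.05 and 3.49 and POU2AF1 at 2.15 and 3.19. When only days 15 to 21 were taken as late, JCHAIN remained higher at the edge (2.17, edgeR adjusted p = 0.00371), while MZB1 stood at 0.61 (adjusted p = 0.438) and POU2AF1 at -0.11 (adjusted p = 0.912). The center values were then 2.32 for JCHAIN, 1.31 for MZB1 and 1.26 for POU2AF1, all called.

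**Figure D4:**
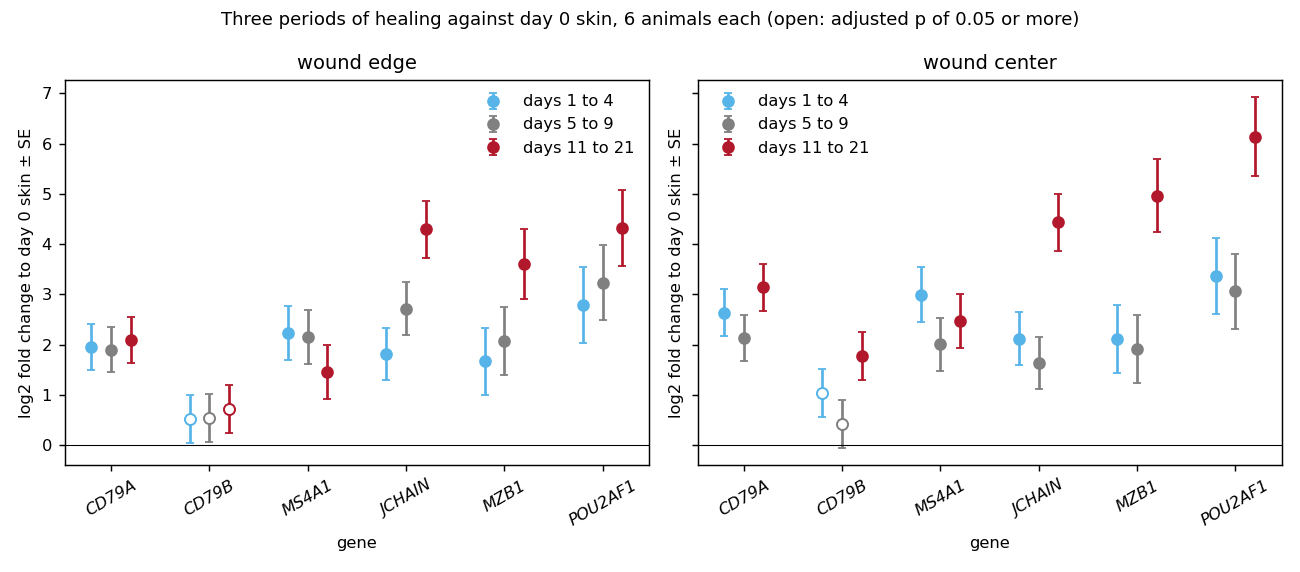
Log2 fold changes of the 6 genes in early, middle and late wounds against day 0 skin from the fit to counts summed per animal (6 animals per group), with bars of 1 SE and filled symbols where the adjusted p was below 0.05. In late wounds JCHAIN lies at 4.29 at the edge and 4.43 in the center, and MS4A1 at 1.46 and 2.47.

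Against day 0 skin, 5 of 6 members were higher in early wounds at the edge (28.0% of all genes) and in the center (36.9%), the exception being CD79B. The log2 fold changes of early wounds in the center were 3.00 ± 0.54 for MS4A1 (edgeR adjusted p = 6.85e-06), 2.64 ± 0.46 for CD79A (adjusted p = 3.87e-06) and 2.12 ± 0.52 for JCHAIN (adjusted p = 0.00049). CD79B was 1.03 ± 0.48 higher there (edgeR adjusted p = 0.0516), and was called under 8 of 15 alternatives, DESeq2 and the omission of the 7 libraries that stood apart among them. In middle wounds 5 members were higher at each location (30.8% and 36.8% of all genes), and in late wounds 5 at the edge (25.8%) and 6 in the center (33.5%). From early to middle wounds 0 members were called at either location (edgeR and DESeq2), and 1 in the center, MS4A1, was below an unadjusted p of 0.05, at -0.99 ± 0.46, and was called lower without animal 5. From middle to late wounds JCHAIN was higher at the edge (1 of 6 members, 8.52% of all genes), and JCHAIN, MZB1, POU2AF1 and CD79B in the center (4 of 6, 19.0%). The edge call of JCHAIN was lost without animal 1, 2 or 5 (1.43 to 1.58), in either animal set alone (1.55 and 1.56) and with late taken as days 15 to 21 (1.28). The CD79B call was lost with the animal as a replicate block (1.05), without animal 1, 2 or 4 (1.32, 1.12 and 0.68), in either animal set alone, with days 15 to 21 as late (0.25) and without the day 13 wound (0.64).

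The edge and the center of late wounds differed for 2 members, both lower at the edge, where 20.6% of all genes were lower. CD79A was -1.05 ± 0.41 (edgeR adjusted p = 0.0354), a call kept only without animal 5 when each animal was left out in turn, and POU2AF1 was -1.81 ± 0.58 (adjusted p = 0.012). In late wounds the CD79A values ran from 1.12 to 3.15 CPM at the edge (median 1.61) and from 1.30 to 9.81 in the center (median 3.02). Without the day 13 wound, and likewise without animal 4, 0 members were called. The values were then lower in size but had the same direction, with CD79A at -0.71 and POU2AF1 at -1.20 without the wound and at -0.75 and -1.28 without animal 4 (edgeR adjusted p from 0.0515 to 0.114). JCHAIN was -0.14 ± 0.49 and changed sign without the wound. Whether the change from early to late wounds itself differed between edge and center was tested in the same fit: 0 of 6 members were called by edgeR or by DESeq2, 0 were below an unadjusted p of 0.05, and 14.9% of all genes were called. The largest such difference was that of POU2AF1, -1.24 ± 0.81.

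Day by day, 5 of 83 pairs of a member and a day differed between edge and center (edgeR on the samples of each day), against 12.5% of all gene and day pairs higher and 11.0% lower at the edge. On day 1 the edge was lower for CD79A (-1.44 ± 0.34, edgeR adjusted p = 0.0044) and MZB1 (-1.33 ± 0.49, adjusted p = 0.0406). On day 9 it was higher for JCHAIN (2.41 ± 0.57, adjusted p = 0.00657) and POU2AF1 (1.23 ± 0.34, adjusted p = 0.0154), and on day 16 for JCHAIN (2.25 ± 0.37, adjusted p = 0.0255). With the wounds of an animal summed, the calls of CD79A on day 1 and JCHAIN on day 16 were kept, and both calls of day 9 and that of MZB1 on day 1 were lost. Without the 7 libraries that stood apart, MZB1 on day 9 was called higher at the edge as well (1.38 ± 0.39, edgeR adjusted p = 0.0188). With the wound as a replicate block, which pairs the 2 libraries of a wound, 10 pairs were called. The share of members called without the block was below the share of all genes.

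JCHAIN and MZB1 serve immunoglobulin assembly, and the immunoglobulin entries of the table were read beside them. There were 31, of which 3 were named for IgG, 1 for IgA, 2 for IgM, 1 for IgE, 11 for kappa and 13 for lambda chains, and their names cannot resolve near-identical gene copies. Their summed share of all counts had a median of 0.00393% in day 0 skin, 0.125% at the edge of day 11 and 0.275% in the center of day 21. Of 19 with enough counts for the test, 12 were higher in late than in early wounds at the edge and 16 in the center, and 0 were lower. Of all genes, 17.0% were higher and 17.0% lower at the edge, and 26.0% higher and 23.6% lower in the center. IGHA2, a heavy chain of IgA whose entry overlaps that of IGHG2, rose by 3.61 ± 0.76 at the edge (edgeR adjusted p = 0.000242) and by 3.54 ± 0.75 in the center (adjusted p = 0.000175). IGHG2, a heavy chain of IgG, rose by 3.49 ± 0.88 (edgeR adjusted p = 0.0019) and by 4.80 ± 0.94 (adjusted p = 5.49e-05). Without the day 13 wound IGHG2 rose by 2.04 at the edge and 2.21 in the center, and IGHA2 by 3.60 and 3.54, all called.

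IgM is the class made first in a B cell response. Its summed level had a median over the 6 animals of 41.0 CPM early and 45.0 late at the edge, and of 67.1 and 54.2 in the center. The IgA entry rose from a median of 31.9 to 390 CPM at the edge and from 35.8 to 173 in the center, and the IgG entries from 60.9 to 260 and from 128 to 476. The share of IgM among the heavy chain counts was 31.2% early and 6.63% late at the edge (medians), and 29.4% and 8.52% in the center. The ENSSSCG00025047901 entry of IGHM gave log2 differences of 0.17 ± 0.28 at the edge and 0.44 ± 0.28 in the center, neither called (edgeR adjusted p = 0.7 and 0.189), and the other IGHM entry was higher at the edge (1.55 ± 0.48, adjusted p = 0.0104) and stood at 1.00 ± 0.47 in the center (adjusted p = 0.0744). In the center library of the day 13 wound described above, immunoglobulin made up 4.89% of all counts and IgG 99.6% of the heavy chain counts.

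**Figure D5:**
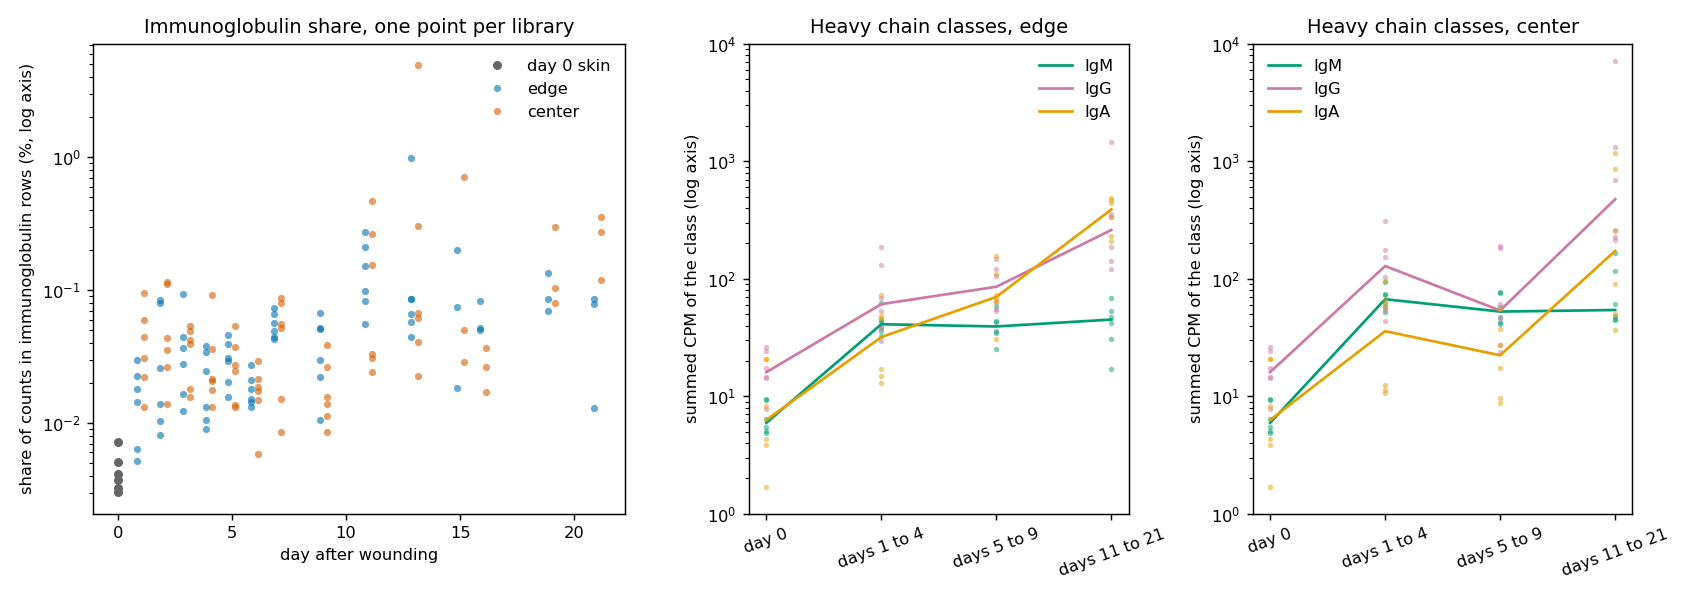
Immunoglobulin counts beside the members: the share of all counts by day and location, and the levels of IgG, IgA and IgM by period for the 6 animals. The IgA and IgG medians rise to 390 and 260 CPM in late edge wounds, and the IgM median is 41.0 CPM early and 45.0 CPM late.

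Across the 150 samples, Pearson's r with the summed immunoglobulin level on the log2(1 + CPM) scale was 0.918 for JCHAIN, 0.89 for MZB1, 0.815 for POU2AF1, 0.554 for CD79A, 0.45 for CD79B and 0.265 for MS4A1. The members were themselves unevenly alike, from 0.905 between MZB1 and POU2AF1 and 0.787 between CD79A and CD79B to 0.216 between MS4A1 and JCHAIN. These samples share animals, wounds and states, and the values are given as a description. Over the 29 state means, the genes most like the mean pattern of the 6 members included ADGRG5 (r = 0.819), IGLV8-61 (0.787), IGHG4 (0.785), IGHM (0.784), SIT1 (0.77), IGLL5 (0.767), LAX1 (0.764), a further IGLV8-61 entry (0.756) and IKZF3 (0.738), among 14577 genes. PAX5, the transcription factor that maintains B cell identity, was most like the mean of CD79A, CD79B and MS4A1 (r = 0.867), and IGLL5 was most like that of JCHAIN, MZB1 and POU2AF1 (0.944). For JCHAIN alone it was IGHA2 (0.967) and for MS4A1 APOL2 (0.895).

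The other genes of the B cell list did not rise from early to late wounds at the edge. Of 17 tested, 0 were higher and 5 lower at the edge, and 3 were higher and 3 lower in the center, with a median log2 fold change of -0.20 and 0.04. Among all genes 17.0% were higher and 17.0% lower at the edge, and 26.0% higher and 23.6% lower in the center. FCRLA, a B cell protein related to Fc receptors, was lower at both locations (-1.10 ± 0.32 and -1.42 ± 0.32, edgeR adjusted p = 0.00661 and 0.000376). EBF1, a transcription factor of the B lineage that other cells of skin also express, was lower in the center (-1.20 ± 0.25). In the center BLK, a kinase of the B cell receptor, and CD40, the receptor for T cell help, were higher (1.97 ± 0.39 and 1.16 ± 0.24). PAX5 was called at neither location. From day 0 to early wounds 10 of the 17 were higher and 1 lower at the edge, and 13 higher and 2 lower in the center. Of all genes, 28.0% were then higher at the edge and 36.9% in the center.

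Of the 17 other plasma cell genes tested, 1 was higher and 2 lower in late than in early wounds at the edge, and 9 were higher and 2 lower in the center. At the edge the shares of all genes, 17.0% in each direction, were above both of these counts, and in the center 26.0% of all genes were higher and 23.6% lower. The gene higher at the edge was TXNDC5, a protein disulfide isomerase (0.92 ± 0.12). In the center the transcription factors IRF4 and PRDM1, which direct plasma cell formation, were higher (2.25 ± 0.37 and 1.35 ± 0.17), as were SDC1, the surface proteoglycan CD138 (1.83 ± 0.14), and TNFRSF17, the survival receptor BCMA (1.35 ± 0.43, edgeR adjusted p = 0.00879). At the edge IRF4 stood at 0.62 ± 0.35, PRDM1 at 0.38 ± 0.17 and TNFRSF17 at 0.85 ± 0.43, none of them called. SLAMF7, a surface receptor of plasma cells and other leukocytes, was lower at both locations (-2.60 ± 0.48 and -1.70 ± 0.46). Several of these genes are also expressed by keratinocytes, and SDC1 had a mean of 515 CPM in day 0 skin.

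Epidermal and muscle content moved with the comparison in the center. Among all genes 26.0% were higher and 23.6% lower there in late than in early wounds. The 7 epidermis markers found, of 10 listed, were all higher in late than in early center wounds, and their summed level ran from 175 to 9339 CPM early and from 6304 to 23110 CPM late over the animals, while at the edge 0 of 7 were called. IVL, a protein of the cornified envelope, differed by 4.18 ± 0.68 in the center and by 0.84 ± 0.60 at the edge. With 3 of 10 missing, this list was too incomplete to serve as a check. All 9 skeletal muscle markers were lower in late center wounds, where their summed level ran from 4.89 to 6.59 CPM against 6.76 to 20625 CPM early, and 0 of 9 were called at the edge. Their part in the center results of the members was not tested.

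Of 18 factors that attract or sustain B lineage cells, 2 were higher and 9 lower in late than in early wounds at the edge, and 2 were higher and 5 lower in the center. Of all genes, 17.0% were higher and 17.0% lower at the edge, and 26.0% higher and 23.6% lower in the center. IL6, a cytokine that acts on plasma cells among many others, was lower at the edge (-2.79 ± 0.47) and in the center (-1.90 ± 0.45). CCR7, the receptor that guides lymphocytes to lymphoid tissue, was lower at the edge (-1.74 ± 0.32), and its ligand CCL19 was lower at both locations (-0.98 ± 0.34 and -1.59 ± 0.34). Its other ligand CCL21 was higher at both (0.79 ± 0.26 and 1.52 ± 0.27), as was CCR10, a receptor that guides plasma cells to epithelia (0.51 ± 0.20 and 0.82 ± 0.20), and these were the 2 factors that rose. CCL20, a chemokine for CCR6-bearing cells, was lower at both (-1.56 ± 0.58 and -1.81 ± 0.58). CXCL13, the B cell chemokine, was called at neither location between early and late wounds, with -0.93 ± 0.63 and 0.32 ± 0.62, and its highest state mean was in day 0 skin (31.7 CPM).

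T cell and macrophage markers moved with the early rise. All 9 T cell markers tested and all 10 macrophage markers were higher in early wounds than in day 0 skin at both locations. Of all genes, 28.0% were higher at the edge and 36.9% in the center. The summed T cell markers ran from 8.66 to 11.4 CPM in day 0 skin, from 44.6 to 109 at the early edge and from 62.4 to 129 in the early center. CD3G was at or near 0 in all states. From early to late wounds 0 T cell markers were higher and 1, CD28, was lower at the edge (-1.75 ± 0.35), and 6 were higher in the center, CD3E among them (1.38 ± 0.31). Of all genes, 17.0% were higher and 17.0% lower at the edge, and 26.0% were higher in the center. The summed T cell markers then ran from 27.0 to 80.1 CPM at the late edge and from 61.3 to 274 in the late center. All 9 were lower at the edge than in the center of late wounds, as were all 10 macrophage markers, against 20.6% of all genes. Their part in the early rise and in the edge and center differences of the members was not tested.

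Macrophage markers fell at the edge while JCHAIN rose there. Of 10, 7 were lower and 0 higher in late than in early edge wounds, CD14 and CD163 among them (-1.62 ± 0.20 and -1.53 ± 0.22), and in the center 4 were higher and 3 lower. Their summed level ran from 254 to 499 CPM in day 0 skin, from 1201 to 1733 at the early edge and from 666 to 1004 at the late edge. JCHAIN and POU2AF1 are also expressed by plasmacytoid dendritic cells or their precursors. Of the 8 markers of these cells with an entry, 2 were higher and 2 lower in late edge wounds, and 3 higher and 1 lower in the center. Among all genes 17.0% were higher and 17.0% lower at the edge, and 26.0% higher and 23.6% lower in the center. LILRA4, a receptor of plasmacytoid dendritic cells, was lower at the edge (-1.55 ± 0.54, edgeR adjusted p = 0.0236) and stood at -0.42 ± 0.52 in the center. The transcription factors RUNX2 and TCF4, which many other cells express, were higher at the edge (0.69 ± 0.15 and 0.61 ± 0.09) and in the center (0.80 ± 0.15 and 0.31 ± 0.09), where BCL11A was higher too (1.02 ± 0.23). Their part in the change of JCHAIN and POU2AF1 was not tested.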

How the data were processed

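Poly-A RNA libraries of 150 biopsies were read as paired ends. The authors deposited unnormalized counts per gene and, in a second table, FPKM values, which divide the count by gene length and library depth. The aligner, the counting tool, its strand setting and the genome build are not given in the sources used here. The labels gave each sample its day, location, wound letter and animal, and these set the groups. Wounds of an animal are not independent, so counts were summed per animal, location and period for the tests of periods. The main period fit had no term for the animal, so its p-values do not use the pairing of sums within animals. In the tests of single days and states the wounds of an animal entered as separate samples. Their p-values treat these wounds as independent and do not stand for a spread between animals. The floor of 3 counts covers counting error only, and SE and SD include the spread between animals or samples. The SE of an edgeR log2 fold change was derived from the test, as its absolute value divided by the square root of the F statistic.

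Genes were filtered with filterByExpr (counts of at least 10, in total at least 15), scaled by TMM and tested by the quasi-likelihood method of edgeR 4.0.16 under R 4.3.3. Calls required an adjusted p (Benjamini-Hochberg, all genes tested) under 0.05. Levels were log2(1 + CPM), and FPKM served only to compare genes. The fits were also run on simulated counts of independent samples. These had no effect of animal or wound, so they do not cover the shared animals of the data, and their outcome is not reported here. DESeq2 1.42.0, no TMM, no filter, a replicate block, summed wounds, other late days, each animal set, each animal left out and the omission of 7 libraries were alternatives. Python 3.11.15, numpy 2.4.6, pandas 2.3.3, scipy 1.17.1 and matplotlib 3.10.9 were used for the rest. The members and the gene lists were chosen with earlier results of these data known.

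The named genes are the 6 members, up to 4 genes of each list with an adjusted p below 0.05 for late against early wounds in either location, by absolute log2 fold change, with a defining gene of the list, the immunoglobulin entries, and the 10 genes most like the members over the 29 states. TXNDC5, CD3G, CCL21, CCR10 and TCF4 were named after their values were seen, as were the genes most like single members or parts of the 6. The lists covered B cell genes, plasma cell genes, attraction and survival factors, and markers of T cells, plasmacytoid dendritic cells, macrophages, skeletal muscle and epidermis. Edge and center libraries of a wound, paired by label, deviated together from their state means, with Pearson's r from 0.436 to 0.629 over 72 wounds for the 6 members, and the animal blocks join samples of the same animal. Some genes that this rule names are not reported here. Wound images and reads were not analysed here.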

Additional observations from a re-analysis of the deposited data

Results flagged for a closer look

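In states of 6 samples, values of a member with a gap to the others above Dixon's 95% limit were looked for in 126 groups on the log2(1 + CPM) scale. There were 11 such values, where chance gives about 6.3. In the center of day 13, replicate 1 stood above the other 5 wounds for CD79A (5.23), CD79B (5.02), MZB1 (8.41) and POU2AF1 (7.13), and this is the wound whose center library held 4.89% immunoglobulin. CD79B was also high in replicate 6 of the day 2 center (3.18) and in replicate 3 of the day 11 center (3.78), and MS4A1 in replicate 1 of the day 5 center (2.23). Low values were those of MS4A1 at the edge in replicate 5 of day 1 (0) and replicate 5 of day 3 (0.36), and of MZB1 in replicate 5 of day 0 (0) and replicate 3 of the day 5 center (1.26).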

How the results depend on the processing

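Late against early wounds, 3 members were called in the center under every alternative run and with each animal left out (3 to 3). At the edge the count ran from 1 to 3 with each animal left out, and was 1 with late taken as days 15 to 21, 1 in animals 1 to 3 alone and 1 in animals 4 to 6 alone. For the edge against the center of late wounds, DESeq2 called 5 members in place of 2, leaving out each animal gave 0 to 4, and leaving out the day 13 wound gave 0. Against day 0 skin, leaving out a replicate of the days with 3 samples gave 101 to 107 pairs in place of 109. Between edge and center on single days, DESeq2 called 9 pairs and summed wounds 2 in place of 5, and on days 15 to 21 leaving out a replicate gave 0 to 1. For single genes, 1548 comparisons of a value with an alternative were classed as the same, 121 as weaker and 5 as stronger. Another 17 turned in sign and 8 were classed as moved. The 5 do not include all calls gained, such as those of CD79B in early center wounds. The causes were not tested beyond the omitted samples.

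With the animal as a replicate block 31 edge pairs were higher than day 0 in place of 48, and with the wound as a replicate block 10 pairs differed between edge and center. The animal block turned JCHAIN in late wounds, edge against center, to 0.039, and among the counts of members called late against early it left 2 at the edge and 3 in the center.

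Signs turned as follows on the log2 scale. CD79A late against early at the edge became -0.14 without TMM, -0.22 without animal 4 (the range with each animal left out was -0.22 to 0.31), -0.52 with days 15 to 21 as late, -0.054 in animals 1 to 3 and -0.21 without the day 13 wound, and in the center -0.20, -0.38, -0.024 and -0.19 under the last 4 of these (-0.20 to 0.71 with each animal left out). CD79B became -0.066 without TMM and -0.43 with days 15 to 21 at the edge, and -0.33 with those days in the center. With days 15 to 21 POU2AF1 became -0.11 at the edge and CD68 -0.13 in the center. JCHAIN, edge against center, became 0.23 without animal 1 (-0.29 to 0.23 with each animal left out) and 0.069 without the day 13 wound. The alternative without the day 13 wound was chosen after seeing the data. Counts of 20 to 31 per sample limit what can be seen of MS4A1, POU2AF1, CD79A and CD79B.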
